A study of Mus musculus with 203 samples.

Results

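Genes for enzymes of xenobiotic metabolism were followed across RNA-seq libraries of mouse airways and lung parenchyma. Members were all genes other than Cyp2f2 that have a symbol starting with Cyp2, Cyp3, Cyp4, Gsta, Gstm, Gstt, Ugt1, Ugt2, Fmo, Ces1, Ces2 or Sult1 and a mean over all libraries of at least 1 CPM (counts per 1000000 counts of a library). The deposited table holds 43346 gene identifiers, and 59 genes, 35.5% of those with such a symbol, reached this level. Members were thus chosen by their mean level over all libraries, so their levels over all libraries are given as a description. Just inside the limit were Fmo6 at 1.51 CPM and Cyp3a13 at 1.53 CPM, and just outside it were Ugt1a1 at 0.904 CPM and Cyp2ab1 at 0.760 CPM. A limit of 0.5 CPM would take in 62 genes and one of 2 CPM would take in 53.

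By the letters of their symbols the 59 genes fall into 14 groups. There are 7 cytochromes P450 of family CYP2 (Cyp2b10, Cyp2a5, Cyp2s1, Cyp2e1, Cyp2d22, Cyp2j6, Cyp2j9), 1 of CYP3 (Cyp3a13) and 10 of CYP4 (Cyp4b1, Cyp4b1-ps2, Cyp4a12b, Cyp4v3 and 6 Cyp4f genes). The prefixes also take in 4 cytochromes P450 of other families (Cyp20a1, Cyp26b1, Cyp27a1, Cyp39a1). Next come 6 flavin monooxygenases (among them Fmo1, Fmo2, Fmo4, Fmo5 and Fmo6), 4 carboxylesterases of group Ces1 and 4 of group Ces2, 13 glutathione S-transferases (4 alpha, 6 mu, 3 theta), 4 UDP-glucuronosyltransferases (3 Ugt1a genes and Ugt2b34) and 5 sulfotransferases (Sult1a1, Sult1b1, Sult1c1, Sult1c2, Sult1d1). The prefix Fmo also matched Fmod, which encodes fibromodulin, a small proteoglycan that binds collagen fibrils and is no enzyme. Of the 59, 58 are annotated as protein coding, Cyp4b1-ps2 being the exception. The genes lie close together on the genome (GRCm38): 46 of them sit in 13 clusters of 2 or more members with gaps of at most 1000000 bases, among them Fmo4, Fmo1, Fmo2 and Fmo6 on chromosome 1, 6 Gstm genes on chromosome 3, the 4 Ces1 and 4 Ces2 genes on chromosome 8 and 5 Cyp4f genes on chromosome 17.

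The mice were female Balb/C, labelled as 18-20 weeks old in all groups. At 3 weeks, mice had received house dust mite extract (HDM), an allergen that gives a model of experimental asthma, or phosphate buffered saline (PBS) into the nose on 5 days per week for 3 weeks. At 11 weeks, mice had received HDM or PBS in the same first course and then 3 times per week from week 4 to week 11. These were given alone with normal air (PBS.AIR, HDM.AIR) or with cigarette smoke (CS) 2 times per day on 5 days per week for 8 weeks (PBS.CS, HDM.CS). Each of these groups had a counterpart treated with dexamethasone (DEX), a glucocorticoid, during week 11 (PBS.AIR.DEX, HDM.AIR.DEX, PBS.CS.DEX, HDM.CS.DEX). With 2 tissues this gives 20 groups of 10 libraries each, except for 11 PBS airway and 12 PBS parenchyma libraries at 3 weeks. The labels say neither that the libraries came from separate mice nor which airway and parenchyma came from one mouse, so p-values measure the spread between libraries only.

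Xenobiotic metabolism makes fat-soluble foreign compounds easier to excrete. In a first phase, cytochromes P450, flavin monooxygenases and carboxylesterases oxidise or split the compound, and in a second phase transferases join it to glutathione, glucuronic acid or sulfate. The liver carries most of this work, but the lung has its own set, which is known above all from the club cells of the airway epithelium. Tobacco smoke holds polycyclic hydrocarbons that activate the aryl hydrocarbon receptor, and electrophiles that release the transcription factor NRF2. These are the regulators usually named for smoke-induced members of the Ugt1a and Gst groups.

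Promoters are shown for 5 members on which the results below turn: Ugt1a7c and Cyp4f18, which rose with HDM, Ugt1a6a, which rose with smoke, and Gstm1 and Gsta3, which fell with HDM. Each sequence is the 250 bases before the annotated start, written 5′ to 3′ along the gene, from RefSeq on GRCm38.p6. Capitals mark the core of the dioxin response element, GCGTG, and of the antioxidant response element, TGACNNNGC, found on either strand.
Ugt1a7c (chr1:88094751-88095000, plus strand): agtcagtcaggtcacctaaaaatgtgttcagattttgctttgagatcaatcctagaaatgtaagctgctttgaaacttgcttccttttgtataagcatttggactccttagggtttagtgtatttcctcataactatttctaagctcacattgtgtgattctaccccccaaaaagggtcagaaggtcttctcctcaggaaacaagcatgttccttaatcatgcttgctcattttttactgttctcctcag
Ugt1a6a (chr1:88134559-88134808, plus strand): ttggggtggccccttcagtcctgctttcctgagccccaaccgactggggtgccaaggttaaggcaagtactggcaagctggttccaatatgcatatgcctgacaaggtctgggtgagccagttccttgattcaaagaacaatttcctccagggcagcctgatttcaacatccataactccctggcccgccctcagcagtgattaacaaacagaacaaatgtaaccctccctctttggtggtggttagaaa
Gstm1 (chr3:108017974-108018223, minus strand): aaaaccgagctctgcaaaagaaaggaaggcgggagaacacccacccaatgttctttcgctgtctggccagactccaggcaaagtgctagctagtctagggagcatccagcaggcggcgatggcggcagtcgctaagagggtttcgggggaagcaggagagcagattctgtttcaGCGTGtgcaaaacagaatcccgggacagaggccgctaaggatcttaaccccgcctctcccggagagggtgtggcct
Gsta3 (chr1:21240335-21240584, plus strand): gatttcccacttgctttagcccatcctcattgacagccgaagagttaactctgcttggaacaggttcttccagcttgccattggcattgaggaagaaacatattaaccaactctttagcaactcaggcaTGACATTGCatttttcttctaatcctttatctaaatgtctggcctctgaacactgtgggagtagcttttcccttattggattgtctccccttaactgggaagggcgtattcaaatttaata
Cyp4f18 (chr8:72009627-72009876, minus strand): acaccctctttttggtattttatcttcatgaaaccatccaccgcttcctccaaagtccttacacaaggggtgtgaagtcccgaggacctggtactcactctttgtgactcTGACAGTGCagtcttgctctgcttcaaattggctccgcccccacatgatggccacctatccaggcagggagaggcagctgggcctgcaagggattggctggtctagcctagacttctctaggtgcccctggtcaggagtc
Neither core was found in the 250 bases shown for Ugt1a7c and Ugt1a6a. Gstm1 holds GCGTG, and Gsta3 and Cyp4f18 each hold a copy of TGACNNNGC. Over whole windows of 250 bases before and 50 after a start, 46 of the 59 members were matched by symbol, with 54 windows in all. GCGTG stood in 13 of these windows (24.1%, of 12 members) against 32.4% of all 32851 promoter windows, and TGACNNNGC in 6 (11.1%, of 6 members) against 12.4%. A match is a description and not a binding site.

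Library totals ranged from 13003154 to 40240733 counts (median 28090684). In 3 airway libraries the log2 CPM profile correlated with the median profile of their group at less than 0.95, the lowest at 0.930: PBS.AIR replicate 1, 3 week HDM replicate 4 and PBS.CS.DEX replicate 8. Results that rest on the first 2 are given with that fact beside them. The markers of club cells, ciliated cells and alveolar cells were all above 1 CPM in both tissues. Summed over 10 club cell markers, PBS.AIR airways held 53905 to 79279 CPM (median 70942) and PBS.AIR parenchyma 20738 to 34863 CPM (median 27300.0), while the alveolar type I markers went the other way, with 2235 to 7488 CPM (median 5797) and 9874 to 11400.0 CPM (median 10678). Airway libraries also held fat and heart muscle RNA in varying amounts, with adipose markers at 516 to 3217 CPM (median 938) in PBS.AIR airways against 18.4 to 35.8 CPM (median 24.6) in parenchyma, where 5 of the 8 markers (Adipoq, Plin1, Lep, Cfd, Pck1) were under 1 CPM. In tissue RNA, fewer cells of a type and less RNA per cell cannot be told apart.

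Compared per kilobase of exon model, a few enzymes made up most of the expression in untreated lung. In PBS.AIR airways the highest means were Ces1d, a carboxylesterase, at 565 ± 67.1 CPM per kb (SD, n = 10), Cyp2a5, a P450 that hydroxylates coumarin and nicotine, at 426 ± 291, Gstm1, a mu-class glutathione transferase, at 353 ± 44.6, Cyp4b1, a P450 that oxidises fatty acids and bioactivates furans, at 261 ± 46.8, and Fmo2, the main flavin monooxygenase of lung, at 188.9 ± 44.6. The means of Ces1d, Cyp2a5 and Gstm1 lay within the spread of Cyp2a5. In PBS.AIR parenchyma the order of the means was Ces1d (372 ± 17.6 CPM per kb), Cyp4b1 (285 ± 29.6), Fmo2 (253 ± 47.2), Gstm1 (242 ± 16.05) and Cyp2b10, a P450 that oxidises barbiturates and other drugs (208 ± 44.98). By family, the sum of mean CPM over all libraries was highest for the 6 flavin monooxygenases (890 CPM), the 7 CYP2 genes (811), the 4 Ces1 genes (664) and the 10 CYP4 genes (577). The leading gene of each was Fmo2 with a mean of 582 CPM, Cyp2b10 with 328, Ces1d with 638 and Cyp4b1 with 410 CPM. At the other end, 15 members had a mean under 1 CPM in at least 1 group.

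Airway and parenchyma of control mice were compared first, to see where the genes were expressed. Differences were tested with limma-voom across all genes, with Benjamini-Hochberg adjustment, and the call required an adjusted p under 0.05 and a log2 fold change (log2FC) of 1 or more in size. A gene that passed the adjusted p at any size is said to have risen or fallen. At 3 weeks 17 of the 59 genes were called higher in PBS airways than in PBS parenchyma (10.0% of all 17377 genes tested) and 0 were called lower (1.91% of all). For the count of 0, no member was called lower by edgeR's quasi-likelihood test or DESeq2 either. An unadjusted p could not change this count, since the lowest log2FC of a member was -0.84 (Ces2c), short of the size for a call. At any size 8 members were lower in airways, beside 5514 of all 17377 genes. In PBS.AIR mice at 11 weeks 21 were called higher (13.4% of 18250 genes) and 1, Ces2c, lower (2.71%).

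A pair of sulfotransferases and several other minor members had control levels in parenchyma near 0 and far higher ones in airways. Sult1b1, Sult1c1, Sult1c2, Ugt2b34 and Fmo6 had means under 1 CPM in every parenchyma group, so they reached the limit of 1 CPM only through airways. Their higher level in airways is thus partly built into the choice of members, and all of them are among the 17 called higher at 3 weeks. Sult1b1, which sulfates small phenols, ranged from 0.467 to 20.5 CPM (median 2.62) in PBS.AIR airways, and in parenchyma it was at 0 counts in 6 of 10 libraries. Sult1c1 ranged from 0.534 to 39.4 CPM (median 3.83) in airways and from 0 to 0.454 CPM (median 0.0343) in parenchyma. Ugt2b34, a glucuronosyltransferase, ranged from 0.333 to 13.5 CPM (median 2.12) and from 0 to 0.136 CPM (median 0.0371). Fmo6 ranged from 2.57 to 19.4 CPM (median 6.77) and from 0.0336 to 0.545 CPM (median 0.218), and Cyp4a12b from 17.1 to 107.3 CPM (median 47.6) and from 0.420 to 2.56 CPM (median 1.39). For all 5 genes every airway library lay above every parenchyma library at both times, and the spread among airways was wide, with PBS.AIR replicate 1, one of the libraries that stand apart, the highest for Sult1b1, Ugt2b34 and Fmo6. The fitted log2FC at 11 weeks was 6.16 for Sult1b1, 5.97 for Sult1c1, 5.37 for Ugt2b34, 5.12 for Cyp4a12b and 4.90 for Fmo6, values that depend on the prior count where parenchyma is near 0. Without the libraries that stand apart they were 5.81 for Sult1b1, 5.06 for Ugt2b34 and 4.69 for Fmo6, each still called. With a filter at a CPM of at least 10 in 9 libraries the difference of Sult1c1 did not pass (adjusted p = 0.159). Sult1a1, by contrast, ranged from 61.3 to 112.9 CPM (median 67.9) in PBS.AIR airways and from 52.2 to 125.6 CPM (median 69.6) in parenchyma, and the tissues overlapped.

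Among better expressed genes, Cyp2a5 was higher in PBS.AIR airways by a log2FC of 4.58 ± 0.41 (SE), Cyp2e1, the ethanol-inducible P450, by 4.24 ± 0.65, Sult1d1, which sulfates catecholamines, by 4.01 ± 0.34 and Ugt1a6b, a phenol glucuronosyltransferase, by 2.43 ± 0.29, with all 10 airway libraries above all parenchyma libraries in each. Cyp2e1 is also known from fat and liver. Its part in airways with more adipose RNA was not tested. All 6 mu-class and all 4 alpha-class Gst genes were higher in PBS airways at 3 weeks, as were 24.3% of all genes at any size, with median log2FC of 0.93 and 0.75 against -0.054 over all genes. Parenchyma was the higher tissue for Ces2c (log2FC -1.01 ± 0.32 (SE), adjusted p = 0.00410), Fmo1 (log2FC -0.91 ± 0.20 (SE), adjusted p = 2.60e-05), Cyp2d22 (log2FC -0.76 ± 0.13 (SE), adjusted p = 2.31e-07), Ces2e and Cyp2b10 at 11 weeks. At 3 weeks, when 31.7% of all genes were lower in airways, the lowest values among members that passed were Ces2c (-0.84), Cyp2d22 (-0.78), Fmo1 (-0.67), Fmo4 (-0.56) and Ces1g (-0.49).

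**Figure D1:**
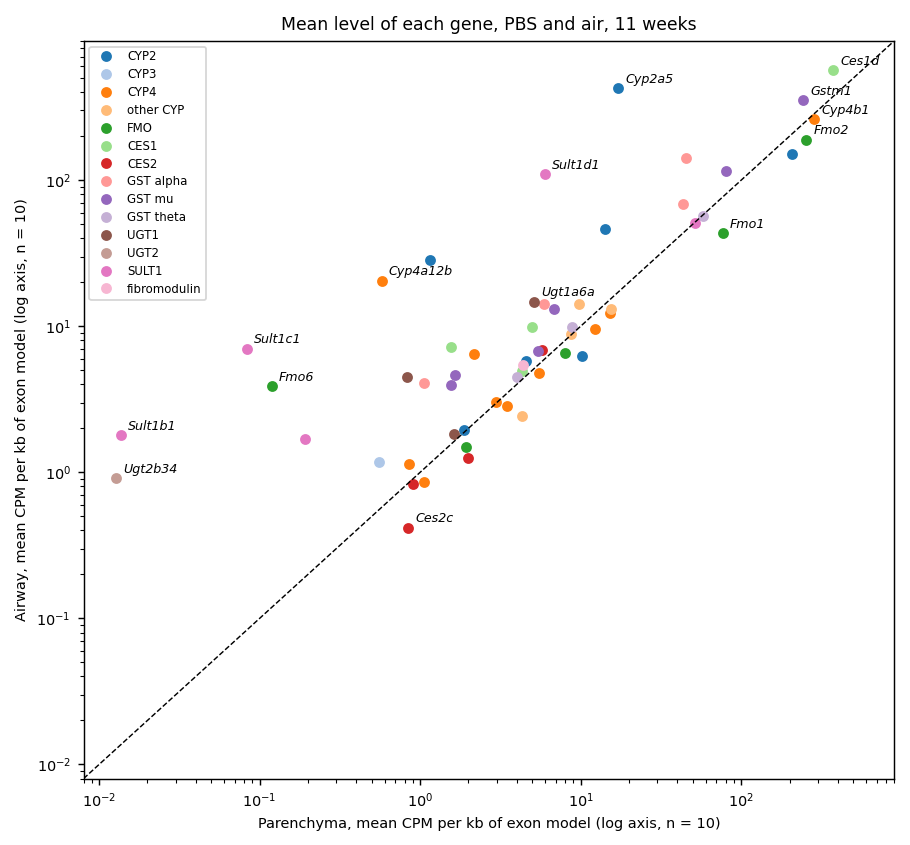
Mean level of 58 genes in PBS.AIR airways (y axis) against PBS.AIR parenchyma (x axis), in CPM per kilobase of exon model on log axes, n = 10 libraries each, coloured by family with the line of equal level dashed. Sult1b1, Sult1c1, Ugt2b34, Cyp4a12b and Fmo6 lie far above the line, and Ces2c and Fmo1 below it.

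HDM was followed by a broad fall of these genes in both tissues. After 3 weeks 39 of the 59 were called lower in airways (11.8% of all genes tested) and 36 in parenchyma (15.1%), with a median log2FC over the members of -1.39 and -1.59 against -0.067 and -0.13 over all genes. Only 2 and 3 members were called higher (12.1% and 14.5% of all genes). After 11 weeks 31 were called lower in airways (8.54%) and 23 in parenchyma (6.12%), and 2 and 2 higher (10.6% and 13.0%), with medians of -1.05 and -0.79. Of all genes, 40.5% fell and 34.1% rose at any size in airways at 3 weeks, 44.3% and 33.4% in parenchyma at 3 weeks, 29.8% and 31.3% in airways at 11 weeks and 26.9% and 32.6% in parenchyma at 11 weeks. In all 4 comparisons 29 members fell (15.0% of the 17299 genes tested at both times), 19 of them by the call in each (2.35%), and 4 rose (Ugt1a7c, Cyp4f18, Cyp4f39 and Cyp4v3, against 20.2% of genes). Sult1c1 and Ces2c passed in none of the 4.

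**Figure D2:**
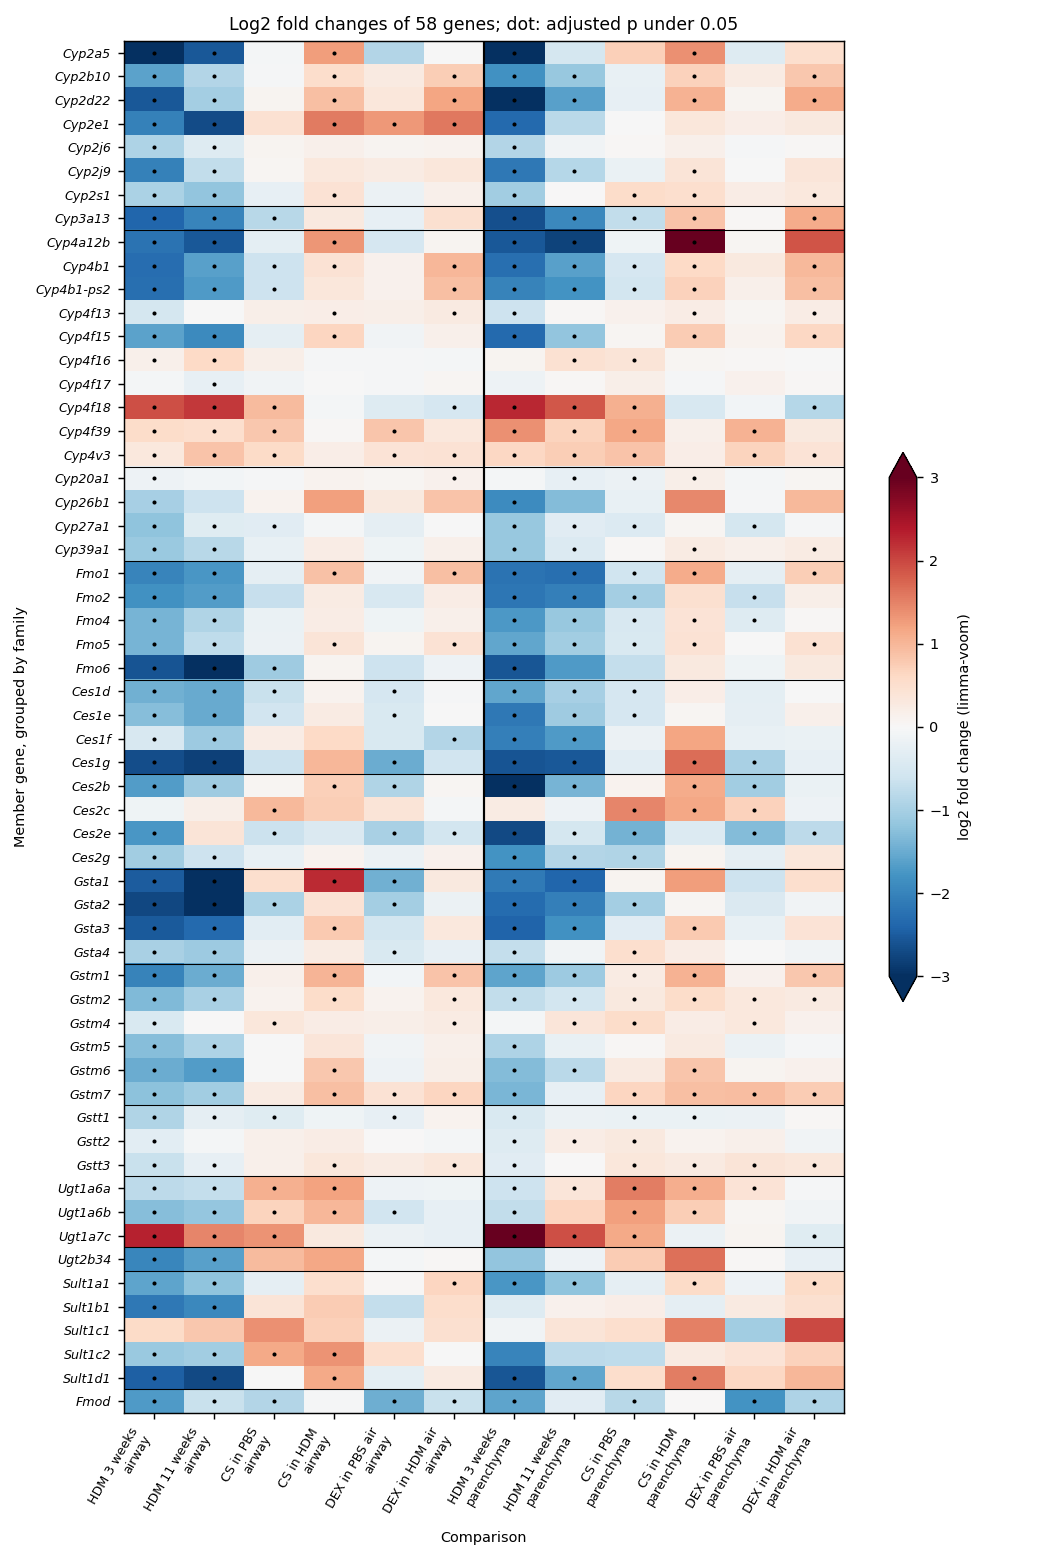
Log2 fold change (colour, blue lower and red higher, scale ending at 3 in size) of 58 genes (rows, by family) in 12 comparisons (columns, airway left and parenchyma right), with a dot where the adjusted p was under 0.05. The HDM columns are blue for most genes and red for Ugt1a7c and Cyp4f18, and the columns for smoke (CS) in HDM are red for 23 genes with a dot in airways and 29 in parenchyma.

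Flavin monooxygenases are a family known for oxidising nitrogen and sulfur atoms of drugs. The members Fmo1, Fmo2, Fmo4, Fmo5 and Fmo6 were called lower at 3 weeks in both tissues. In parenchyma Fmo6 was at trace level, from 0 to 0.395 CPM (median 0.156) in PBS and at 0 counts in 8 of 10 HDM libraries. Fmo1 ranged from 215 to 368 CPM (median 248) in 12 PBS parenchyma libraries and from 45.6 to 109.7 CPM (median 55.9) in 10 HDM libraries, and the groups did not overlap (log2FC -2.21 ± 0.15 (SE), adjusted p = 3.25e-17). At 11 weeks Fmo1 fell from 405 to 580.0 CPM (median 483) in PBS.AIR to 41.3 to 175.2 CPM (median 95.7) in HDM.AIR parenchyma, again without overlap (log2FC -2.27 ± 0.19 (SE), adjusted p = 2.49e-22). In airways at 11 weeks it ranged from 158.9 to 383 CPM (median 294) in PBS.AIR and from 54.5 to 133.4 CPM (median 67.6) in HDM.AIR. Fmo2, the highest of the family, fell in parenchyma from 1046 to 1794 CPM (median 1457) in PBS.AIR to 155.8 to 591 CPM (median 286) in HDM.AIR (log2FC -2.06 ± 0.25 (SE), adjusted p = 7.44e-13). Fmo6 was called lower in airways by a log2FC of -2.60 ± 0.45 at 3 weeks and -3.36 ± 0.46 at 11 weeks (-3.22 without the libraries that stand apart).

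The 7 CYP2 genes and Cyp3a13, a steroid- and drug-oxidising P450, all fell at 3 weeks in both tissues. Cyp2a5 was the member with the largest fall in airways, from 565 to 1628 CPM (median 734) in PBS to 27.1 to 739 CPM (median 75.1) in HDM (log2FC -3.08 ± 0.41 (SE), adjusted p = 1.22e-08). In 9 of 10 HDM libraries it was below all PBS libraries, and the single overlapping library was replicate 4, which stands apart (log2FC -3.37 without the libraries that stand apart). Cyp2d22, which belongs to the subfamily of debrisoquine-oxidising P450s, fell in parenchyma from 32.8 to 67.6 CPM (median 51.7) to 4.66 to 8.32 CPM (median 5.93) without overlap (log2FC -3.03 ± 0.17 (SE), adjusted p = 1.30e-19). At 11 weeks Cyp2a5 ranged from 201.2 to 1891 CPM (median 723) in PBS.AIR airways and from 19.2 to 230.5 CPM (median 136.9) in HDM.AIR airways (log2FC -2.55 ± 0.40 (SE), adjusted p = 1.54e-08), with 8 of 10 HDM.AIR libraries below all controls. In parenchyma at 11 weeks Cyp2a5 did not pass (log2FC -0.53). The 10 CYP4 genes were divided: Cyp4b1, its pseudogene Cyp4b1-ps2, Cyp4a12b and Cyp4f15 were called lower in all 4 comparisons, while Cyp4f18, Cyp4f39 and Cyp4v3 rose in all 4. Between PBS.AIR and HDM.AIR, Cyp4b1 fell in airways from 469 to 795 CPM (median 549) to 128.01 to 242 CPM (median 185.1) and in parenchyma from 542 to 735 CPM (median 654) to 122.3 to 327 CPM (median 182.1), with no overlap in either (log2FC -1.63 ± 0.14 (SE), adjusted p = 1.54e-20 and log2FC -1.64 ± 0.14 (SE), adjusted p = 1.56e-20). Cyp4a12b, an omega-hydroxylase of arachidonic acid, showed the lowest log2FC in parenchyma at 11 weeks (log2FC -2.78 ± 1.25 (SE), adjusted p = 0.0477), on levels of 0.420 to 2.56 CPM (median 1.39) in PBS.AIR and 0 to 1.25 CPM (median 0.184) in HDM.AIR, and it did not pass with a filter at a CPM of at least 10 in 9 libraries (adjusted p = 0.382).

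Carboxylesterases, which split esters and amides, also fell. Ces1d ranged from 1125 to 1575 CPM (median 1328) in PBS.AIR airways and from 331 to 551 CPM (median 452) in HDM.AIR airways, and from 808 to 944 CPM (median 889) and 295 to 599 CPM (median 398) in parenchyma, so the groups were apart in both tissues. Ces1g was among the 5 largest falls in airways at 3 weeks (-2.67) and in both tissues at 11 weeks (-2.81 and -2.55). In parenchyma at 11 weeks Ces1g went from 4.74 to 13.6 CPM (median 10.3) to 0.562 to 3.59 CPM (median 1.51). Ces2b and Ces2e were among the largest falls in parenchyma at 3 weeks, Ces2b from 3.41 to 5.78 CPM (median 3.69) to 0.223 to 0.734 CPM (median 0.390) (log2FC -3.34 ± 0.29 (SE), adjusted p = 7.07e-14) and Ces2e from 2.74 to 6.65 CPM (median 4.24) to 0.186 to 1.24 CPM (median 0.779) (log2FC -2.71 ± 0.22 (SE), adjusted p = 1.01e-14), both without overlap. At 11 weeks Ces2e had a log2FC of -0.52 in parenchyma and 0.38 in airways, where it did not pass.

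Among the conjugating enzymes, the alpha-class genes Gsta1, Gsta2 and Gsta3 were called lower in all 4 HDM comparisons, while Gsta4 had log2FC of -0.98 and -0.72 at 3 weeks and -1.08 at 11 weeks in airways and did not pass in parenchyma at 11 weeks (-0.11). Gsta2 went in airways from 6.56 to 16.5 CPM (median 11.5) in PBS to 1.04 to 2.99 CPM (median 1.72) in HDM at 3 weeks (log2FC -2.74 ± 0.23 (SE), adjusted p = 1.22e-13) and from 11.2 to 21.3 CPM (median 16.7) to 1.09 to 3.02 CPM (median 1.60) at 11 weeks (log2FC -3.30 ± 0.20 (SE), adjusted p = 4.44e-32). Gsta1 had the largest fall of any member in airways at 11 weeks, from 2.18 to 7.51 CPM (median 3.79) to 0.106 to 0.368 CPM (median 0.330) (log2FC -3.72 ± 0.60 (SE), adjusted p = 2.35e-08). No library overlapped in these 3 comparisons, and without the libraries that stand apart, PBS.AIR replicate 1 among them, Gsta1 had a log2FC of -3.62. However, Gsta1 and Gsta2 are near copies, and the counting may have shared reads between them. Gsta3, the alpha gene with the highest mean, fell in each (log2FC -2.52 and -2.39 at 3 weeks, -2.33 and -1.81 at 11 weeks). Gstm1 fell from 442 to 641 CPM (median 511) to 140.9 to 231 CPM (median 182.3) in airways and from 323 to 413 CPM (median 350.5) to 122.1 to 217 CPM (median 152.4) in parenchyma, with all HDM.AIR libraries below all PBS.AIR libraries (log2FC -1.49 ± 0.10 (SE), adjusted p = 4.15e-28 and log2FC -1.08 ± 0.10 (SE), adjusted p = 3.74e-19). The 3 theta-class genes fell at 3 weeks with log2FC of -0.90 to -0.33 in airways and -0.45 to -0.33 in parenchyma, and none reached the call. Of the sulfotransferases, Sult1d1 and Sult1a1 were called lower in all 4 comparisons. Sult1b1, Sult1c2 and Ugt2b34 were called lower in airways at both times and did not pass in parenchyma, where Sult1b1 and Ugt2b34 were near 0.

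The rises stood against this pattern. Ugt1a7c, which glucuronidates polycyclic phenols, ranged in airways from 1.85 to 6.12 CPM (median 3.67) in PBS and from 11.5 to 25.5 CPM (median 18.6) in HDM at 3 weeks (log2FC 2.32 ± 0.21 (SE), adjusted p = 3.91e-13). In parenchyma it ranged from 1.05 to 8.01 CPM (median 2.08) and from 20.8 to 30.2 CPM (median 25.8) (log2FC 3.30 ± 0.24 (SE), adjusted p = 2.47e-16). At 11 weeks it rose from 6.56 to 9.13 CPM (median 7.62) to 14.5 to 27.7 CPM (median 20.1) in airways and from 4.28 to 9.11 CPM (median 6.84) to 20.2 to 32.5 CPM (median 24.4) in parenchyma, and in none of the 4 comparisons did the groups overlap. Its neighbours Ugt1a6a and Ugt1a6b, which share the last exons of the locus with it, went the other way at 3 weeks (log2FC -0.78 and -1.27 in airways). Reads from the shared exons cannot be assigned to one of the 3 by position alone, so their split depends on the counting. Cyp4f18, a leukotriene B4 hydroxylase of myeloid cells, ranged from 4.31 to 11.1 CPM (median 6.61) in PBS and from 15.6 to 38.5 CPM (median 29.5) in HDM airways at 3 weeks, and from 4.93 to 9.39 CPM (median 6.97) and 23.7 to 49.03 CPM (median 35.2) in parenchyma. At 11 weeks it rose in airways from 3.47 to 9.74 CPM (median 4.30) to 11.3 to 27.8 CPM (median 24.5) (log2FC 2.13 ± 0.25 (SE), adjusted p = 2.61e-13) and in parenchyma from 4.06 to 8.97 CPM (median 6.55) to 12.5 to 37.7 CPM (median 20.6) (log2FC 1.87 ± 0.24 (SE), adjusted p = 8.52e-12), without overlap in any of the 4. Cyp4f39, an omega-hydroxylase of very long fatty acids, was called higher in parenchyma at 3 weeks only (log2FC 1.38 ± 0.22 (SE), adjusted p = 3.13e-07).

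**Figure D3:**
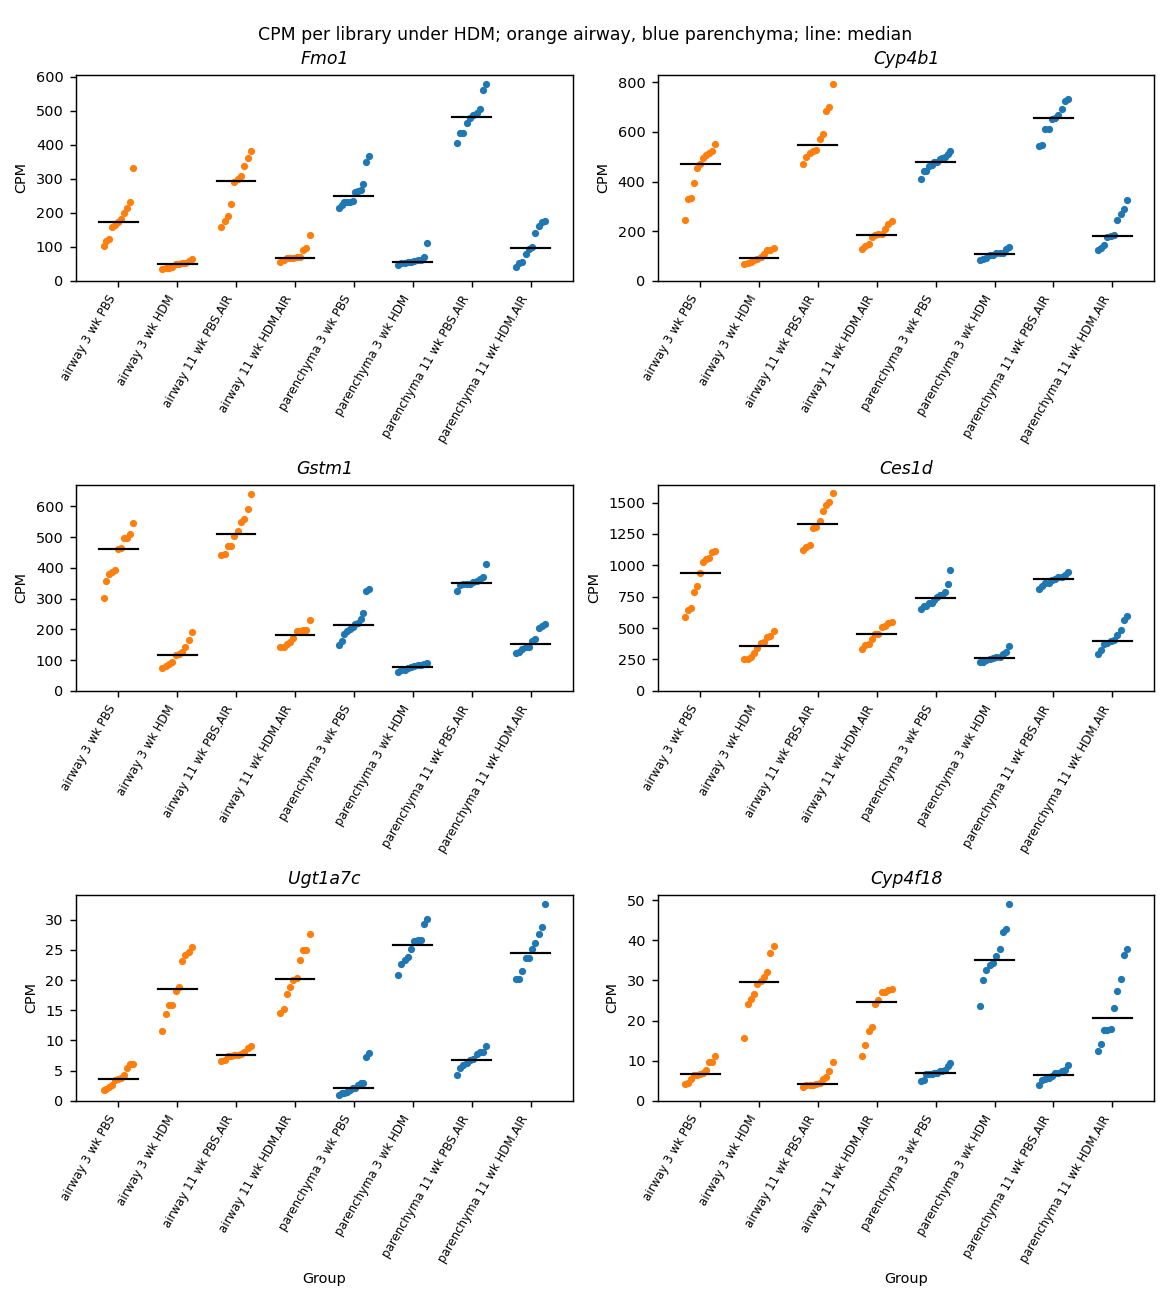
CPM in each library (points) with the group median (line) for 6 genes in PBS and HDM groups at 3 weeks and in PBS.AIR and HDM.AIR groups at 11 weeks, airway in orange and parenchyma in blue, axes from 0. Fmo1, Cyp4b1, Gstm1 and Ces1d are lower in every HDM group than in its control, and Ugt1a7c and Cyp4f18 are higher.

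Markers of several cell types moved with HDM. The sum over 10 club cell markers went from 53905 to 79279 CPM (median 70942) in PBS.AIR to 13674 to 36081 CPM (median 25085) in HDM.AIR airways, and from 23554 to 55070.0 CPM (median 32323) in PBS to 11507 to 19326 CPM (median 14332) in HDM parenchyma at 3 weeks. The airway values are from 11 weeks, so these sums do not compare the tissues. Endothelial markers in parenchyma went from 5038 to 6769 CPM (median 6219) to 1034 to 3495 CPM (median 1939) and alveolar fibroblast markers from 4275 to 5284 CPM (median 4734) to 1233 to 2409.9 CPM (median 1620.0). Macrophage markers rose from 805 to 1429.9 CPM (median 887) to 1551 to 14009 CPM (median 3207) and B cell markers from 127.3 to 371 CPM (median 190.9) to 2702 to 11765 CPM (median 5638). The part of cell composition in the changes of the 59 genes was not tested. In airways adipose markers were also lower in HDM.AIR, at 16.1 to 374 CPM (median 183.1). In parenchyma adipose markers stayed low in both groups (13.3 to 128.4 CPM (median 18.5) in HDM.AIR). The log2FC at 11 weeks in parenchyma was -2.27 for Fmo1 against -1.75 in airways and -2.06 against -1.67 for Fmo2. It was -1.64 against -1.63 for Cyp4b1 and -1.0 against -1.52 for Ces1d. Over all 59 genes, 15 passed with a lower HDM effect in airways than in parenchyma at 11 weeks and 3 with a higher one. Of all 18250 genes tested, 2712 passed with a lower one and 2319 with a higher one. The part of adipose RNA in the airway changes was not tested.

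Other genes of the pathway were counted from lists of partner genes. Of 29 tested genes for P450 partners and other oxidation enzymes, 24 fell and 2 rose with HDM in airways at 3 weeks, with a median log2FC of -1.23 against -0.067 over all genes, and 21 fell and 4 rose in parenchyma, where 44.3% of all genes fell and 33.4% rose (40.5% and 34.1% in airways). The lowest was Cyp1a1, the P450 induced through the aryl hydrocarbon receptor, in both tissues (log2FC -4.74 ± 0.57, adjusted p = 1.05e-09 in airways and log2FC -4.14 ± 0.53, adjusted p = 2.67e-09 in parenchyma), and the highest was Cyp1b1 (log2FC 1.42 ± 0.28, adjusted p = 1.65e-05 in parenchyma). At 11 weeks 20 fell and 2 rose in airways and 15 fell and 6 rose in parenchyma, against 29.8% and 31.3% of all genes in airways and 26.9% and 32.6% in parenchyma. Of 25 tested genes for other conjugation enzymes and cofactors, 15 fell and 3 rose in airways at 3 weeks. The range ran from Inmt, an amine methyltransferase (log2FC -3.29 ± 0.17, adjusted p = 3.35e-20), to Gclc, the rate-limiting enzyme of glutathione synthesis (log2FC 0.95 ± 0.083, adjusted p = 2.33e-13). Of 15 tested transporters 8 fell and 6 rose in parenchyma at 3 weeks, from Slc47a1, an exporter of organic cations (log2FC -2.27 ± 0.64, adjusted p = 0.00143), to Slc22a4, an importer of ergothioneine (log2FC 2.04 ± 0.18, adjusted p = 1.21e-13). Of 15 tested regulators 6 fell and 3 rose there, beside the 44.3% and 33.4% of all genes that fell and rose in that comparison, and the lowest was Nr1i3, the constitutive androstane receptor that controls Cyp2b genes (log2FC -2.70 ± 0.44, adjusted p = 6.05e-07). Hnf4a had the highest fitted value among regulators at 11 weeks, but it was at or near 0 counts in PBS.AIR libraries and is given no fold.

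The HDM effect differed little between tissues at 3 weeks. In the test of the difference, 2 of the 59 were called (2.21% of all genes), 5 passed with a higher value in airways (10.8%) and 6 with a lower one (6.43%). Ces2b (log2FC 1.67 ± 0.36 (SE), adjusted p = 0.00189) and Ces1f (log2FC 1.56 ± 0.44 (SE), adjusted p = 0.0115) fell less in airways, and Ugt1a7c rose less there (log2FC -0.98 ± 0.31 (SE), adjusted p = 0.0255). Ces1f did not pass with a filter at a CPM of at least 10 in 9 libraries (adjusted p = 0.118), nor Ugt1a7c by edgeR or DESeq2 (adjusted p = 0.116 and 0.0819). At 11 weeks 5 members were called (7.97%), 15 passed with a lower value in airways (14.9%) and 3 with a higher one (12.7%). The called genes were Cyp2a5 (log2FC -2.01 ± 0.57 (SE), adjusted p = 0.00416), Ugt1a6b (log2FC -1.80 ± 0.40 (SE), adjusted p = 2.98e-04), Gsta2 (log2FC -1.26 ± 0.30 (SE), adjusted p = 6.48e-04), Cyp2s1 (log2FC -1.19 ± 0.17 (SE), adjusted p = 8.00e-08) and Ugt1a6a (log2FC -1.07 ± 0.21 (SE), adjusted p = 3.23e-05), all of which fell further in airways or fell in airways only. Club cell markers moved the same way, with 9 of 10 passing with a lower value in airways, and their part was not tested. Cyp2d22 and Ces2e passed in the opposite direction (0.59 and 0.90). Of the called genes, Ugt1a6a and Ugt1a6b had higher medians in HDM.AIR than in PBS.AIR parenchyma (25.8 against 21.3 CPM and 2.76 against 1.87 CPM).

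Between times the HDM effect was smaller at 11 than at 3 weeks for many members. In a fit of the libraries of both times together, 25 of 59 had a higher log2FC at 11 weeks in parenchyma (21.5% of 18528 genes) and 3 a lower one (20.9%), with 9 called (10.2%). In airways 17 were higher (14.5%) and 1 lower (13.9%), with 3 called (6.07%). Ces2e changed most in airways (log2FC 2.07 ± 0.29 (SE), adjusted p = 5.47e-09) and Cyp2a5 in parenchyma (log2FC 2.40 ± 0.61 (SE), adjusted p = 5.94e-04), where Ces2e, Ces2b, Cyp2d22, Ugt1a6b and Cyp2j9 came next among those that passed, with 2.07, 1.81, 1.29, 1.25 and 1.16. Among members that passed, Ugt1a7c, whose rise was smaller at 11 weeks, had the lowest value in both tissues (-0.91 in airways and -1.48 in parenchyma). The 11 week mice had a later course with fewer doses per week after the first one, so time and dose cannot be told apart.

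Cigarette smoke without HDM moved fewer of the genes, and in both directions. In airways 9 of 59 rose (7.66% of all genes) and 12 fell (6.03%), 4 of them past the call (2.78%). In parenchyma 16 rose (17.7%) and 16 fell (18.2%), 9 past the call (5.33%). Smoke, dexamethasone and HDM effects share the PBS.AIR or HDM.AIR libraries as controls, so their values are set side by side only. The genes that rose in both tissues were the 3 Ugt1a genes, Ces2c, Gstm4, Cyp4f18, Cyp4f39 and Cyp4v3, 8 in all (6.48% of all genes).

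Ugt1a6a, a phenol glucuronosyltransferase, and its neighbour Ugt1a7c were called higher with smoke in both tissues. Ugt1a6a rose in airways from 43.9 to 83.6 CPM (median 61.5) in PBS.AIR to 70.5 to 255 CPM (median 120.2) in PBS.CS, with 9 of 10 smoke libraries above all air libraries (log2FC 1.07 ± 0.14 (SE), adjusted p = 5.99e-10), and in parenchyma from 17.2 to 31.4 CPM (median 21.3) to 47.98 to 78.4 CPM (median 59.8) without overlap (log2FC 1.54 ± 0.15 (SE), adjusted p = 5.21e-17). Ugt1a7c rose from 6.56 to 9.13 CPM (median 7.62) to 13.3 to 42.3 CPM (median 17.8) in airways and from 4.28 to 9.11 CPM (median 6.84) to 10.98 to 19.6 CPM (median 14.8) in parenchyma, also without overlap (log2FC 1.36 ± 0.14 (SE), adjusted p = 1.00e-13 and log2FC 1.14 ± 0.16 (SE), adjusted p = 1.15e-09). Ces2c ranged in parenchyma from 1.36 to 3.27 CPM (median 1.80) to 3.24 to 7.44 CPM (median 5.01) with 9 of 10 smoke libraries above (log2FC 1.46 ± 0.24 (SE), adjusted p = 3.96e-07). Sult1c2 was called higher in airways (log2FC 1.14 ± 0.36 (SE), adjusted p = 0.0175), with 5 of 10 smoke libraries above all air libraries. Of the 6 mu-class genes, Gstm4 rose in airways (0.33), and Gstm1, Gstm2, Gstm4 and Gstm7 rose in parenchyma (0.26, 0.29, 0.55 and 0.65).

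Among members that passed, the falls with smoke alone were led by Ces2e and Fmo2 in parenchyma. Ces2e went from 3.31 to 7.49 CPM (median 5.07) to 1.48 to 2.82 CPM (median 1.90) (log2FC -1.42 ± 0.20 (SE), adjusted p = 4.55e-09) and Fmo2 from 1046 to 1794 CPM (median 1457) to 476 to 913 CPM (median 711) (log2FC -1.01 ± 0.26 (SE), adjusted p = 8.97e-04), both without overlap. Gsta2 was lower in parenchyma by 1.01 ± 0.19 and in airways by 0.95 ± 0.13 on the log2 scale. Ces2g (-0.89) and Fmod (-0.84) completed the 5 lowest that passed in parenchyma, of which the first 3 were called. In airways Fmo6 was called lower (log2FC -1.07 ± 0.31 (SE), adjusted p = 0.00858), followed among those that passed by Gsta2, Fmod (-0.88), Cyp3a13 (-0.83) and Ces1d (-0.67), for which all 10 smoke libraries lay below all air libraries. The call of Fmo6 rests on PBS.AIR replicate 1, which was far above the rest, and it did not pass by edgeR or DESeq2 (adjusted p = 0.143 and 0.200). Without the libraries that stand apart the log2FC of Fmo6 was -0.88, short of the size for a call. Macrophage markers were higher with smoke, at 2227 to 3302 CPM (median 2544) in PBS.CS parenchyma, and endothelial markers lower, at 3029 to 4892 CPM (median 4347), and their part was not tested.

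Among the partner genes, smoke raised Cyp1a1 in PBS mice in airways (log2FC 3.19 ± 0.73, adjusted p = 6.63e-04) and in parenchyma (log2FC 2.91 ± 0.63, adjusted p = 9.48e-05), and raised Ahrr, the repressor of the aryl hydrocarbon receptor, by similar fitted amounts in both (log2FC 2.45 ± 0.24, adjusted p = 4.26e-15 and log2FC 2.42 ± 0.26, adjusted p = 1.58e-14). Of 29 oxidation partners 7 rose and 6 fell in airways and 14 rose and 5 fell in parenchyma, against 7.66% and 6.03% of all genes in airways and 17.7% and 18.2% in parenchyma. Of 27 other conjugation and cofactor genes 11 rose and 3 fell in parenchyma. Between tissues the smoke effect was called different for 0 of the 59 genes (0.904% of all genes). At an unadjusted p under 0.05, 1 member passed that size, and edgeR and DESeq2 called none. At any size 1, Ces2g, passed with a higher value in airways (0.685%) and 2, Cyp2s1 and Gsta4, with a lower one (3.04%). Their differences were 0.66 ± 0.20, -0.78 ± 0.18 and -0.67 ± 0.19 on the log2 scale.

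When smoke was added to HDM, the members moved almost only upwards. In airways 24 of 59 rose (6.07% of all genes) and 0 fell (10.1%), 9 past the call (2.64%). No member fell by edgeR or DESeq2 either, and 1 was lower at an unadjusted p under 0.05. In parenchyma 30 rose (10.0%) and 1, Gstt1, fell (14.1%), 11 past the call (4.36%). The median log2FC of the members was 0.43 in airways and 0.44 in parenchyma against -0.0071 and -0.011 over all genes. In both tissues 21 members rose (5.01% of all genes), with Ugt1a6a, Gstm1, Sult1d1, Cyp2a5 and Cyp4a12b past the call in both. In parenchyma 2 of these calls were lost in an alternative, Cyp4a12b with a filter at a CPM of at least 10 in 9 libraries (adjusted p = 0.415) and Cyp2a5 with no filter (adjusted p = 0.0595).

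Gstm1 rose from 140.9 to 231 CPM (median 182.3) in HDM.AIR to 311 to 436 CPM (median 359) in HDM.CS airways and from 122.1 to 217 CPM (median 152.4) to 291 to 414 CPM (median 338) in parenchyma, without overlap in either (log2FC 1.01 ± 0.10 (SE), adjusted p = 6.19e-14 and log2FC 1.05 ± 0.10 (SE), adjusted p = 1.54e-15). In PBS.AIR airways it had ranged from 442 to 641 CPM (median 511), so all HDM.CS airways lay below all untreated ones. Ugt1a6a likewise rose without overlap in both tissues, to 60.2 to 121.6 CPM (median 88.5) in airways and 46.4 to 74.5 CPM (median 58.2) in parenchyma (log2FC 1.2 ± 0.14 (SE), adjusted p = 2.64e-11 and log2FC 1.08 ± 0.14 (SE), adjusted p = 1.33e-09). Gsta1 had the highest log2FC in airways (log2FC 2.24 ± 0.64 (SE), adjusted p = 0.00697), from 0.106 to 0.368 CPM (median 0.330) to 0.613 to 2.97 CPM (median 1.18). After it came Cyp2e1 (1.57, 5 of 10 libraries above all of HDM.AIR), Sult1c2 (1.34, 6 of 10), Cyp4a12b (1.32, 8 of 10) and Cyp2a5 (1.26, 5 of 10).

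In parenchyma Cyp4a12b ranged from 0 to 1.25 CPM (median 0.184) in HDM.AIR and from 0.949 to 2.94 CPM (median 1.47) in HDM.CS, and its fitted log2FC of 3.18 ± 1.23 is that of a gene at trace level. Ces1g rose from 0.562 to 3.59 CPM (median 1.51) to 2.58 to 9.45 CPM (median 5.18), with 9 of 10 libraries above (log2FC 1.69 ± 0.37 (SE), adjusted p = 2.15e-04), and among those that passed Sult1d1 (1.54) and Cyp2a5 (1.36) came next. Fmo1 rose from 41.3 to 175.2 CPM (median 95.7) to 156.1 to 308 CPM (median 210.1) (log2FC 1.12 ± 0.18 (SE), adjusted p = 2.89e-07). Several cell type markers lay between the HDM.AIR and PBS.AIR values in HDM.CS: endothelial markers in parenchyma at 2866 to 4866 CPM (median 3797), alveolar type I markers at 6752 to 8167 CPM (median 7147) against 3665 to 6507 CPM (median 4843) in HDM.AIR, and B cell markers at 1005 to 2566 CPM (median 1992). Their part in the rises was not tested. Cyp1a1 again rose most among the partners (log2FC 5.39 ± 1.12, adjusted p = 1.65e-04 in airways and log2FC 5.41 ± 1.01, adjusted p = 9.90e-06 in parenchyma). Of 29 oxidation partners 17 rose in airways and none fell, where 1108 of all 18250 genes rose and 1846 fell.

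The interaction term asks whether the smoke effect in HDM mice differed from that in PBS mice. It was positive for 24 of 59 in airways (7.72% of all genes) and negative for 3 (11.4%), with 11 called (5.17%). In parenchyma it was positive for 27 (17.3%) and negative for 6 (18.7%), with 14 called (10.5%). In both tissues 19 members were positive (5.18% of all genes) and 3, Ugt1a7c, Cyp4f18 and Cyp4v3, negative (9.52%). Among members that passed, Ces1g had the largest positive term (log2FC 1.65 ± 0.46 (SE), adjusted p = 0.00548 in airways and log2FC 2.0 ± 0.45 (SE), adjusted p = 1.22e-04 in parenchyma). Fmo1 was at -0.61 for smoke in PBS parenchyma and at 1.12 in HDM parenchyma (log2FC 1.72 ± 0.27 (SE), adjusted p = 3.44e-08). For Ugt1a7c the opposite held: smoke raised it in PBS mice, whereas in HDM.CS it ranged from 18.5 to 33.9 CPM (median 25.7) in airways and 18.6 to 29.2 CPM (median 22.3) in parenchyma, close to HDM.AIR (log2FC -1.07 ± 0.19 (SE), adjusted p = 5.61e-06 and log2FC -1.31 ± 0.20 (SE), adjusted p = 1.34e-08). Cyp4f18 had negative terms of -1.01 ± 0.33 and -1.55 ± 0.32. Ugt1a6a did not pass in either tissue, with terms of 0.13 ± 0.20 and -0.45 ± 0.21.

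**Figure D4:**
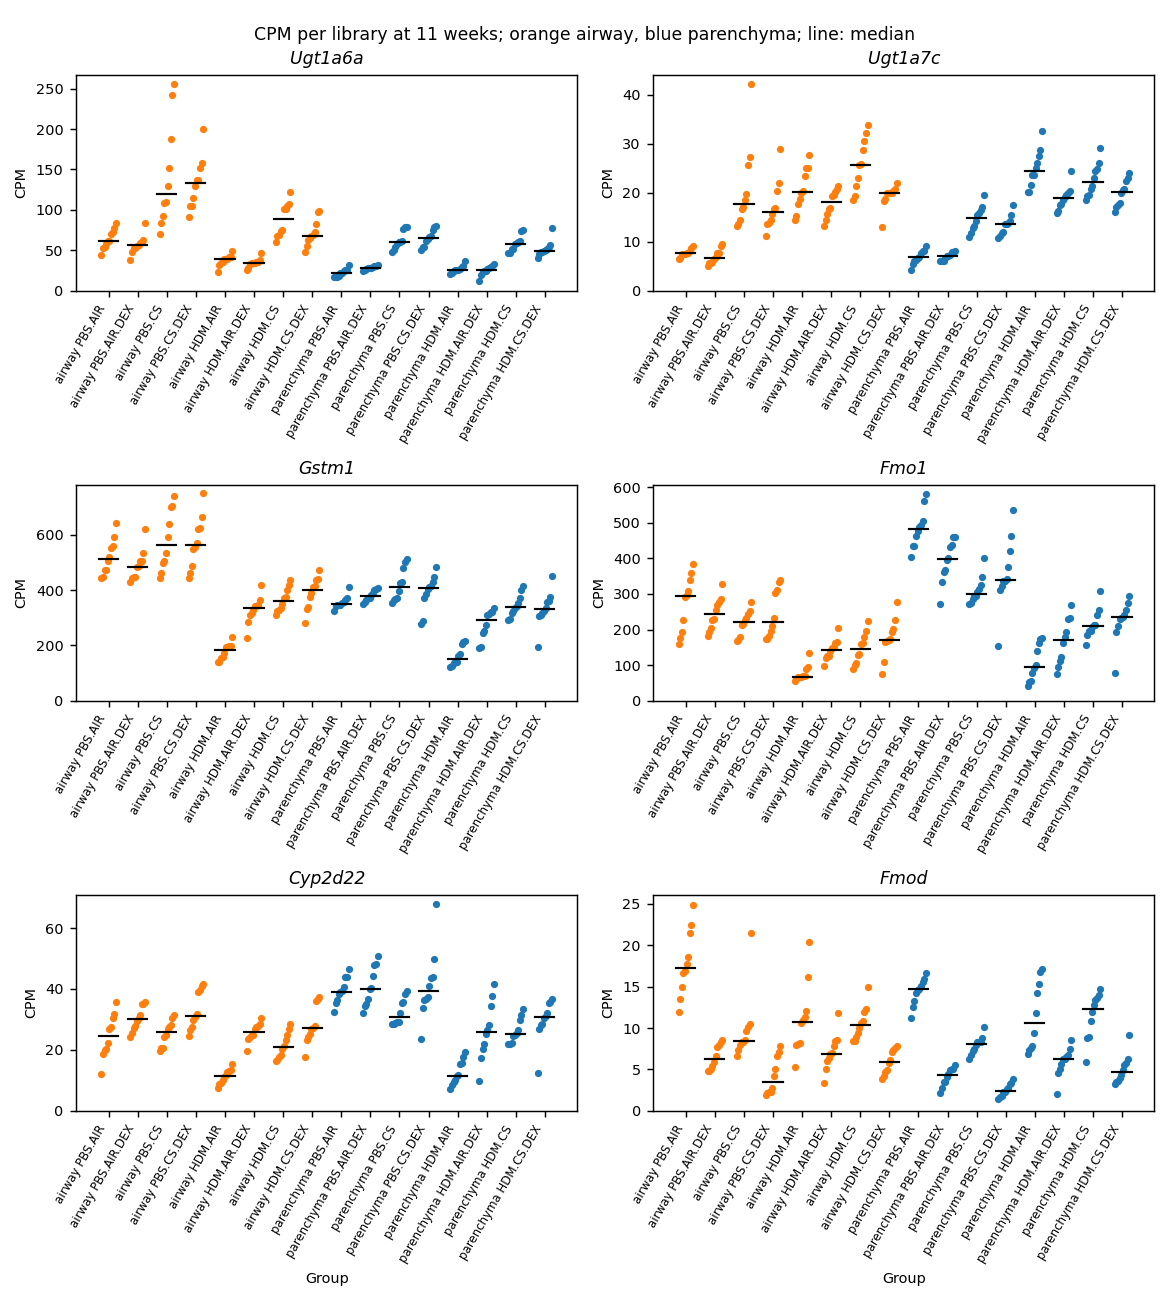
CPM in each library (points) with the group median (line) for 6 genes in the 16 groups at 11 weeks, 10 libraries each, airway in orange and parenchyma in blue, axes from 0. By their medians Ugt1a6a is higher in each smoke group than in its air counterpart, Gstm1, Fmo1 and Cyp2d22 are lowest in HDM.AIR, and Fmod is lower in each dexamethasone group than in its counterpart.

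Dexamethasone in PBS.AIR mice moved few of the genes. In airways 4 of 59 rose (8.03% of all genes) and 11 fell (6.85%), 5 past the call (2.41%). In parenchyma 8 rose (10.6%) and 7 fell (12.0%), 4 past the call (3.16%). The member called lower in both tissues was Fmod, the matrix proteoglycan, which fell from 11.97 to 24.9 CPM (median 17.3) to 4.85 to 8.53 CPM (median 6.26) in airways and from 11.2 to 16.7 CPM (median 14.7) to 2.18 to 5.52 CPM (median 4.28) in parenchyma, without overlap in either (log2FC -1.46 ± 0.18 (SE), adjusted p = 1.37e-10 and log2FC -1.80 ± 0.21 (SE), adjusted p = 3.99e-12). Among the enzymes Ces1g (log2FC -1.49 ± 0.27 (SE), adjusted p = 1.59e-05), Gsta1 (log2FC -1.45 ± 0.40 (SE), adjusted p = 0.00585) and Gsta2 (log2FC -1.01 ± 0.13 (SE), adjusted p = 1.84e-09) were called lower in airways with all 10 libraries below all of PBS.AIR, and Ces2e (log2FC -1.30 ± 0.20 (SE), adjusted p = 1.12e-07) and Ces2b (log2FC -1.05 ± 0.23 (SE), adjusted p = 2.65e-04) in parenchyma. Cyp2e1 was called higher in airways (log2FC 1.29 ± 0.35 (SE), adjusted p = 0.00496) on ranges of 16.9 to 160 CPM (median 36.98) in PBS.AIR and 16.1 to 341 CPM (median 140.2) in PBS.AIR.DEX, which overlap. Adipose markers were at 206 to 4543 CPM (median 1685) in the latter, and their part was not tested. Cyp4f39 was called higher in parenchyma (log2FC 1.05 ± 0.21 (SE), adjusted p = 3.68e-05), with Gstm7 (0.92), Ces2c (0.70) and Cyp4v3 (0.66) next.

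Given to HDM.AIR mice, dexamethasone was followed by modest rises. In airways 16 of 59 rose (12.5%) and 4 fell (16.0%), 2 past the call (5.86%), and in parenchyma 18 rose (12.2%) and 4 fell (16.2%), 3 past the call (6.02%). In both tissues 13 members rose (9.00% of all genes), among them Gstm1, Cyp4b1, Fmo1 and Cyp2b10, and Ces2e, Cyp4f18 and Fmod fell (13.1%). Cyp2d22 was called in both: it rose from 7.47 to 15.4 CPM (median 11.5) to 19.5 to 30.4 CPM (median 25.9) in airways, without overlap (log2FC 1.18 ± 0.16 (SE), adjusted p = 1.96e-10), and from 7.04 to 19.4 CPM (median 11.6) to 9.92 to 41.6 CPM (median 25.9) in parenchyma, with 8 of 10 above (log2FC 1.11 ± 0.15 (SE), adjusted p = 1.79e-09). Cyp4b1 rose from 128.01 to 242 CPM (median 185.1) to 256 to 526 CPM (median 389.5) in airways, where it overlapped the lower end of its PBS.AIR range, and to 202.9 to 638 CPM (median 336) in parenchyma (log2FC 0.98 ± 0.14 (SE), adjusted p = 1.87e-09 and log2FC 0.97 ± 0.14 (SE), adjusted p = 4.21e-09). Cyp3a13 (log2FC 1.11 ± 0.30 (SE), adjusted p = 0.00217) was also called in parenchyma and Cyp2e1 in airways (log2FC 1.57 ± 0.50 (SE), adjusted p = 0.0103), where its highest library in HDM.AIR.DEX was well above the others. B cell markers in parenchyma were at 852 to 3316 CPM (median 2117) and alveolar type I markers at 3716 to 7858 CPM (median 6863) in HDM.AIR.DEX, and their part was not tested.

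In mice with both HDM and smoke, dexamethasone moved few members, at shares close to those of all genes. In airways 2 rose (2.25%) and 3 fell (7.05%), and 0 were called (2.04% of all genes), also at an unadjusted p under 0.05 and by edgeR and DESeq2. In parenchyma 0 rose (2.46%) and 4 fell (5.40%), and 1, Fmod, was called (2.03%). For the rises there, 4 members were higher at an unadjusted p under 0.05, and none by edgeR or DESeq2 after adjustment. Fmod (log2FC -0.90 ± 0.19 (SE), adjusted p = 2.87e-04 and log2FC -1.25 ± 0.20 (SE), adjusted p = 2.67e-06) and Ces2c (-0.95 and -0.85) fell in both tissues. Whether the dexamethasone effect differed between smoke-exposed and air-exposed HDM mice was not tested. The levels of Fmod were 8.43 to 14.997 CPM (median 10.3) in HDM.CS airways and 3.90 to 7.85 CPM (median 5.96) in HDM.CS.DEX airways, and 5.93 to 14.7 CPM (median 12.3) and 3.21 to 9.17 CPM (median 4.66) in parenchyma.

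For dexamethasone in PBS.CS mice the levels are given without a test. Ugt1a6a ranged from 91.3 to 200.3 CPM (median 133.4) in PBS.CS.DEX airways and from 50.4 to 80.4 CPM (median 65.1) in parenchyma, Ugt1a7c from 11.2 to 28.9 CPM (median 16.2) and 10.8 to 17.4 CPM (median 13.6), and Gstm1 from 443 to 749 CPM (median 563) and 278 to 483 CPM (median 407). The ranges of both Ugt1a genes overlapped those of PBS.CS in each tissue. Fmod ranged from 6.67 to 21.5 CPM (median 8.47) in PBS.CS and 1.91 to 7.78 CPM (median 3.44) in PBS.CS.DEX airways, and in parenchyma from 6.22 to 10.1 CPM (median 8.08) and 1.37 to 3.84 CPM (median 2.44), where the groups did not overlap. The airway values include PBS.CS.DEX replicate 8, which stands apart.

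**Figure D5:**
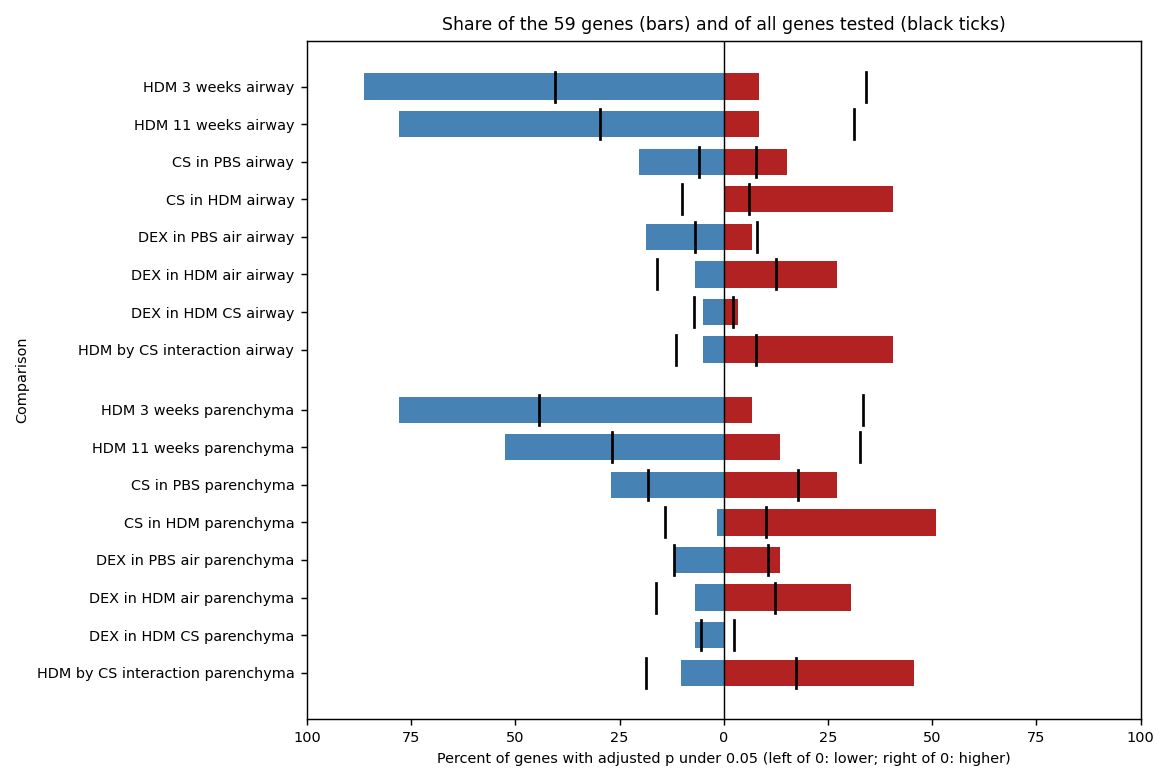
Percent of the 59 genes (bars, red higher and blue lower) and of all genes tested (black ticks) that passed an adjusted p under 0.05 in each comparison. Falls with HDM stand at 31 to 51 of 59 genes, and the rises with smoke in HDM mice at 24 in airways and 30 in parenchyma.

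Some members moved little with smoke or dexamethasone. Cyp20a1, a P450 of little known function, had log2FC between -0.26 and 0.18 over the HDM, smoke and dexamethasone comparisons in parenchyma. Cyp2j6, a fatty acid epoxygenase, fell with HDM by 0.92 ± 0.068 on the log2 scale in airways at 3 weeks and by 0.38 ± 0.063 at 11 weeks, and passed in none of the smoke or dexamethasone comparisons. Gstt1, a theta-class enzyme for halogenated alkanes, fell in airways with HDM (log2FC -0.90 at 3 weeks and -0.27 at 11 weeks), with smoke alone (-0.36) and with dexamethasone alone (-0.24). Near-identical copies limit what can be said of single genes in the Gsta, Gstm, Ces1, Cyp4a and Cyp4f groups and of Cyp4b1 and Cyp4b1-ps2, since the estimated counts share out reads that match more than 1 gene.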

How the data were processed

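RNA-seq was done on airway and parenchyma tissue of 203 libraries in 20 groups. The authors sequenced single reads of 100 bp, and the submitters' processing notes name mm10, STAR 2.5.1b, RSEM 1.2.31 and kallisto 0.44.0. Which of these made the deposited table, and whether counting used strand, is not given in the sources used here. The values deposited by the authors are expected counts per gene, made from aligned reads and not scaled for depth or length. They were rounded before testing, since 20.3% of those above 0 were not whole (tolerance 1e-06). Symbols, coordinates and exon lengths came from GENCODE M21: 97.96% of identifiers matched without their version and 53.3% with it, including 17 of 59 members.

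Library totals ranged from 13003154 to 40240733. Each library counted once, since none repeated another within sampling noise (lowest chi-square per gene 8.49 between libraries of a group). In R 4.3.3 with edgeR 4.0.16 and limma 3.58.1, counts were TMM-normalized and fitted with voom, 1 mean per group, over 43 libraries at 3 weeks (17377 genes), 160 at 11 weeks (18250 genes) or all 203 (18528 genes), with Benjamini-Hochberg adjustment. The filter kept genes that in at least 9 libraries reached a CPM equal to 10 counts at median depth, as all 59 members did in each fit. CPM in the text use the library total. A called gene had an adjusted p under 0.05 and a log2FC of 1 or more in size. The script was tested on simulated data. The alternatives were DESeq2 1.42.0, edgeR's quasi-likelihood test, scaling by size factors, other filters, sample quality weights, 1 fit of all libraries and, added after seeing the data, leaving out the 3 libraries that stand apart.

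Members, gene lists and comparisons were chosen with earlier results of these data known. Named genes were up to 5 rises and 5 falls in each main comparison, the leading gene of each family, up to 5 in each direction for differences, those beside the level limit, members of another protein family and the extremes of the partner lists. Promoters came from the RefSeq table on GRCm38.p6, and 13 members had no entry in it. The values of 1 member are not reported here, though it stays in all counts. Errors are spreads over libraries, which the labels do not tie to mice beyond their group.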

Additional observations from a re-analysis of the deposited data

Results flagged for a closer look

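Single libraries lay far from the rest of their group of 10 for 14 sets of values, 12.4% of those examined. The limit used gives about 1 in 20 groups for independent values with a normal spread. The sets share libraries and CPM need not have that spread, so no excess over chance is read from this share. In each the gap from the highest library to the next took up an unusually large share of the group's range (Dixon's test). PBS.AIR airway replicate 1, which stands apart as a whole, was highest for Gsta1 (7.51 CPM), Sult1b1 (20.5 CPM), Ugt2b34 (13.5 CPM) and Fmo6 (19.4 CPM). The 3 week HDM airway replicate 4, which also stands apart, was highest for Cyp2a5 (739 CPM). The other sets held Fmo1 in HDM.AIR airway replicate 3 (133.4 CPM) and in 3 week HDM parenchyma replicate 1 (109.7 CPM), Gsta2 in HDM.AIR airway replicate 9 (3.02 CPM), Ugt1a7c in PBS.CS airway replicate 8 (42.3 CPM), Cyp2e1 in HDM.AIR.DEX airway replicate 8 (132.3 CPM), Sult1b1 in PBS.AIR parenchyma replicate 7 (0.209 CPM), Cyp4a12b in HDM.AIR parenchyma replicate 5 (1.25 CPM), and Fmod in PBS.CS airway replicate 8 (21.5 CPM) and in HDM.CS.DEX parenchyma replicate 5 (9.17 CPM).

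Effects differed between groups, each by its own test at an adjusted p under 0.05, in the following genes, with the difference in log2FC in brackets. For the HDM effect at 3 weeks, airway less parenchyma, 11 members passed, among them Ces2b (1.67), Ces1f (1.56), Ces1e (0.85), Ces2e (0.96), Cyp4f15 (0.74), Gstm2 (-0.60), Gstm4 (-0.40), Ugt1a7c (-0.98), Gstt3 (-0.34) and Gstt1 (-0.45). At 11 weeks 18 passed, among them Ces2e (0.90), Cyp2d22 (0.59), Cyp20a1 (0.18), Cyp2s1 (-1.19), Gsta4 (-0.98), Ugt1a6a (-1.07), Ugt1a6b (-1.80), Gsta2 (-1.26) and Cyp2a5 (-2.01). The smoke effect, airway less parenchyma, differed for 3 members: Ces2g (0.66), Cyp2s1 (-0.78) and Gsta4 (-0.67).

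For the smoke effect in HDM less that in PBS mice, 27 members passed in airways, among them Gstm1 (0.85), Cyp4b1 (1.05), Gsta2 (1.39), Fmo1 (1.16), Ces1e (0.83), Ugt1a7c (-1.07), Cyp4f18 (-1.01) and Cyp4v3 (-0.37). In parenchyma 33 passed, among them Fmo5 (0.90), Cyp2d22 (1.30), Fmo1 (1.72), Gstm1 (0.79), Cyp4b1 (1.10), Ugt1a7c (-1.31), Cyp4f18 (-1.55), Cyp4v3 (-0.65), Cyp4f39 (-1.0) and Cyp4f16 (-0.33). For the HDM effect at 11 less 3 weeks, 18 passed in airways, among them Ces2e (2.07), Cyp2j9 (1.24), Cyp2d22 (1.46), Cyp2j6 (0.47), Cyp27a1 (0.80) and Ugt1a7c (-0.91), and 28 in parenchyma, among them Cyp2j6 (0.66), Ces2e (2.07), Cyp2d22 (1.29), Cyp2j9 (1.16), Cyp2s1 (0.93), Ugt1a7c (-1.48), Cyp20a1 (-0.32) and Cyp4f39 (-0.83).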

How the results depend on the processing

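No direction reversed under any alternative. Over the counts of members, 90.8% of the alternatives stayed within 1.5 times the value reported, and 17 did not. With edgeR's quasi-likelihood test the HDM effect between 11 and 3 weeks in airways was called for 6 members and with DESeq2 for 5, against 3 reported. DESeq2 called 8 members, against 5, for the HDM effect between tissues at 11 weeks. A filter at a CPM of at least 10 in 9 libraries tests fewer members, and left 26 called for HDM at 3 weeks in airways (41 reported) and 23 in parenchyma (39), 10 for airway versus parenchyma in PBS (17) and 14 in PBS.AIR (22), 1 for the HDM effect between tissues at 3 weeks (2), 2 for smoke in PBS airways (4), 1 each for dexamethasone in PBS.AIR parenchyma (4) and HDM.AIR parenchyma (3), and 1 for the HDM effect between times in airways (3). Sample quality weights gave 4 for the HDM effect between tissues at 3 weeks (2), 7 for smoke in PBS airways (4), 2 for dexamethasone in HDM.CS airways (0), 1 for the smoke effect between tissues (0) and 5 for the HDM effect between times in airways (3), and the cause was not tested. For smoke in PBS airways the call was 3 higher and 1 lower as reported, and 5 higher and 0 lower with edgeR and DESeq2. DESeq2 size factors moved the median log2FC of all genes by at most 0.0902.

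Of the named results 15.3%, or 25, lost an adjusted p under 0.05 in at least 1 alternative. Without the 3 libraries that stand apart, an alternative added after seeing the data, 4 did: Cyp4f15 for the HDM effect between tissues at 3 weeks, Cyp4v3 for the interaction in airways, and Ces2g and Gsta4 for the smoke effect between tissues. Under the CPM filter at 10 such losses included Ces1e, Ces1f and Cyp4f15 for the HDM effect between tissues at 3 weeks, Ces1f for dexamethasone in HDM.AIR airways, Cyp4a12b for HDM at 11 weeks and for smoke in HDM in parenchyma, and Sult1c1 between tissues in PBS.AIR. With edgeR or DESeq2 they were Ugt1a7c, Gstt1 and Gstt3 for the HDM effect between tissues at 3 weeks, Cyp20a1 for it at 11 weeks, Fmo6 for smoke in PBS airways, Ces2e and Cyp4f18 for dexamethasone in HDM.AIR airways, Cyp4f13 for dexamethasone in HDM.CS airways and Ces2c for dexamethasone in HDM.CS mice in both tissues and in PBS.AIR parenchyma. With no filter they included Cyp2a5 for smoke in HDM parenchyma and Ugt1a6a for dexamethasone in PBS.AIR parenchyma, and with sample quality weights Cyp2d22 for the HDM effect between tissues at 11 weeks. No paired analysis was possible because the labels give no replicate numbers or animal identities shared between groups. The running order of library codes is not stated to pair them and was not used. Members near 0 in parenchyma are limited by depth.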
